A study of Mus musculus with 23 samples.

Results

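The natriuretic peptide system of the embryonic mouse heart was described by 7 genes: the peptides Nppa, Nppb and Nppc, the protease Corin and the receptors Npr1, Npr2 and Npr3. They were chosen by symbol from the 23457 genes of a count table, with the lower counts of Nppb and Npr3 in hearts lacking G-protein coupled receptor kinases already known. Hearts of C57BL/6 embryos were taken at embryonic day 13.5 for RNA sequencing, and the genotype gave 3 groups. The 7 triple-knockout hearts were labelled GRK2 fl/fl, with GRK5 fl/fl, GRK6 KO/KO and Nkx2.5Cre. The 8 haploinsufficient hearts were labelled GRK2 fl/wt, with GRK5 fl/fl, GRK6 KO/KO and Nkx2.5Cre, and so shared the Cre driver, the floxed Grk5 alleles and the Grk6 deletion with the triple knockout. The 8 wild-type hearts carried unmodified kinase genes and no Cre, so no group had Cre with intact kinases. The driver is named for Nkx2-5, a gene of the cardiac lineage, and the floxed alleles remain in cells without Cre.

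The 3 peptides act through receptors that make cyclic GMP. Atrial natriuretic peptide (Nppa) and B-type natriuretic peptide (Nppb) bind the guanylyl cyclase Npr1, and C-type natriuretic peptide (Nppc) binds the guanylyl cyclase Npr2. Npr3 lacks the cyclase domain, takes up all 3 peptides and clears them, and in the embryonic heart it is known as an endocardial gene. Corin is a membrane protease of cardiomyocytes that cuts the Nppa precursor to its active form. In the embryo Nppa and Nppb mark atrial and trabecular working myocardium, and both are widely used as readouts of cardiac differentiation and load.

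Nppb and Nppa lie head to tail on chromosome 4. In the authors' annotation (mm10, forward strand) Nppb spans chr4:147985789-147987205 and Nppa spans chr4:148000746-148002067, each with 3 exons, and 13.540 kb separate them. The 250 bases before each RefSeq start (GRCm38.p6, forward strand) are shown because these neighbouring promoters belong to the pair of peptides described first. Capitals mark matches, on either strand, to short motifs named for cardiac regulators and to TATAAA.
Nppb promoter, chr4:147985650-147985899: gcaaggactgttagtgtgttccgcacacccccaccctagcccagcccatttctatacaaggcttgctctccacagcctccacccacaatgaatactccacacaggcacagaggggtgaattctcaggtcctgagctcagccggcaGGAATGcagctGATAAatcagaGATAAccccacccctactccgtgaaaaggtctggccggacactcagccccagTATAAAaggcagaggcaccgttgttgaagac
Nppa promoter, chr4:148000472-148000721: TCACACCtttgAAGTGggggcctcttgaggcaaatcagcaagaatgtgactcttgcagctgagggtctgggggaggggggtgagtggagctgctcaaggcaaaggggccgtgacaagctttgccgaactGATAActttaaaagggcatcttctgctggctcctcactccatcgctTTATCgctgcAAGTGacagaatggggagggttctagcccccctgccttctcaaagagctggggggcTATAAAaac
The motifs were chosen after these promoters had been read. GATAA, the core bound by GATA factors, occurred 2 times in each window, on the forward strand in Nppb and once on each strand in Nppa. AAGTG, the core of an NKX2-5 element, occurred 2 times in the Nppa window and was not found in the Nppb window. The Nppa window opened with the T-box motif TCACACC, 250 bases before the start. The Nppb window held the reverse complement of CATTCC, the MCAT motif bound by TEAD factors. TATAAA ended 26 bases before the start of Nppb and 4 bases before that of Nppa. No 2 of these matches overlapped. Among 32817 windows of the same length before mouse genes, 22.59% held GATAA, 40.72% AAGTG, 3.334% TCACACC, 12.64% CATTCC and 12.37% TATAAA. The CArG box, bound by serum response factor, was searched too, was in 1.469% of windows and was not found before any of the 7 genes. All 7 genes had a RefSeq window, and in the other 5 the only match was TATAAA before Nppc. The RefSeq start of Nppb lies 111 bases inside the authors' first exon, and that of Nppa 24 bases before the authors' start. A match describes letters in the window and not binding.

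The other 5 genes lie apart (mm10). Npr2 is also on chromosome 4 (chr4:43631935-43651240, forward strand, 22 exons), Nppc on chromosome 1 (chr1:86666293-86670573, reverse strand, 3 exons) and Npr1 on chromosome 3 (chr3:90450592-90465866, reverse strand, 22 exons). Npr3 is on chromosome 15 (chr15:11839897-11905674, reverse strand, 8 exons) and Corin on chromosome 5 (chr5:72300025-72504540, reverse strand, 23 exons). Reads did not keep their strand, so reads from antisense genes count for their partners where exons overlap. GENCODE M21 places such antisense exons over 532 bases of Nppa, 402 of Npr1, 147 of Corin and 59 of Npr2, and none of these antisense genes has a row in the count table.

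The total count of a library lay between 6657734 and 13864731 for the triple knockout, between 1757257 and 11025358 for haploinsufficient hearts and between 3838166 and 14050559 for wild type. Transcripts of the targeted genes were still detected in the GRK groups. Grk5 ran from 10.9 to 19.7 CPM (counts scaled to library size, with TMM scaling) in the triple knockout, 8.26 to 15.2 CPM in the haploinsufficient group and 20.3 to 27.4 CPM in wild type, and Grk6, labelled KO/KO, averaged 15.0 ± 3.43 CPM in the triple knockout, 15.8 ± 4.39 CPM in the haploinsufficient group and 30.8 ± 3.23 CPM in wild type. Every library of both GRK groups was below every wild-type library for these 2 genes. Grk2, listed as Adrbk1, was below all wild-type libraries in 7 of 7 triple-knockout and 4 of 8 haploinsufficient libraries. Cardiomyocyte transcripts were abundant throughout, with cardiac troponin T (Tnnt2) between 1816 and 3844 CPM in the triple knockout, 2356 and 3441 CPM in the haploinsufficient group and 1910 and 3098 CPM in wild type. Libraries fell into 2 ID sets, 1 to 12 and 19 to 30, with 3 and 4 triple-knockout, 4 and 4 haploinsufficient and 4 and 4 wild-type libraries. Markers of lung, foregut, liver and thymus were high in 7 libraries, with a mean log2 score over 14 of 16 markers more than 1.5 above the wild-type mean: triple-knockout replicates 1, 3 and 7, haploinsufficient replicates 1, 7 and 8, and wild-type replicate 4. Values without these 7 libraries are given beside log2 differences of members, and not for ratios or correlations. The libraries kept are not free of these markers: haploinsufficient replicates 2 and 4 scored 1.41 each and triple-knockout replicate 2 scored 1.03. In whole hearts, fewer cells of a type and less RNA per cell cannot be told apart. Nothing in the labels ties replicates to separate embryos. The p-values therefore cover the spread of these libraries alone, part of which may be technical.

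Per length, Nppa was by far the most abundant member and Nppc the least. The deposited FPKM of Nppa averaged 2008 ± 472 in the triple knockout (SD, n = 7), 1736 ± 265 in the haploinsufficient group (n = 8) and 2358 ± 482 in wild type (n = 8). These levels ranked 149, 188 and 148 among 23405 gene symbols, and Nppa took a median of 0.123%, 0.121% and 0.154% of all counts of a library in the same order. Nppb came next, at 109.9 ± 23.3 FPKM in the triple knockout, 110.8 ± 23.4 FPKM in the haploinsufficient group and 189.3 ± 36.4 FPKM in wild type. Npr3 averaged 18.1, 16.7 and 24.3 FPKM and Corin 16.7, 12.1 and 13.1 FPKM in triple knockout, haploinsufficient and wild type, and these 2 overlapped in the triple knockout and in the haploinsufficient group. Npr1 and Npr2, the 2 guanylyl cyclases, stood at nearly the same level: 8.92 and 8.75 FPKM in the triple knockout, 7.46 and 7.53 FPKM in the haploinsufficient group and 8.49 and 8.57 FPKM in wild type. Their ranges overlapped in every group. The clearance receptor was thus the most abundant receptor per length in each group mean, and the peptide Nppc stayed under 1 FPKM in each group mean.

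**Figure D1:**
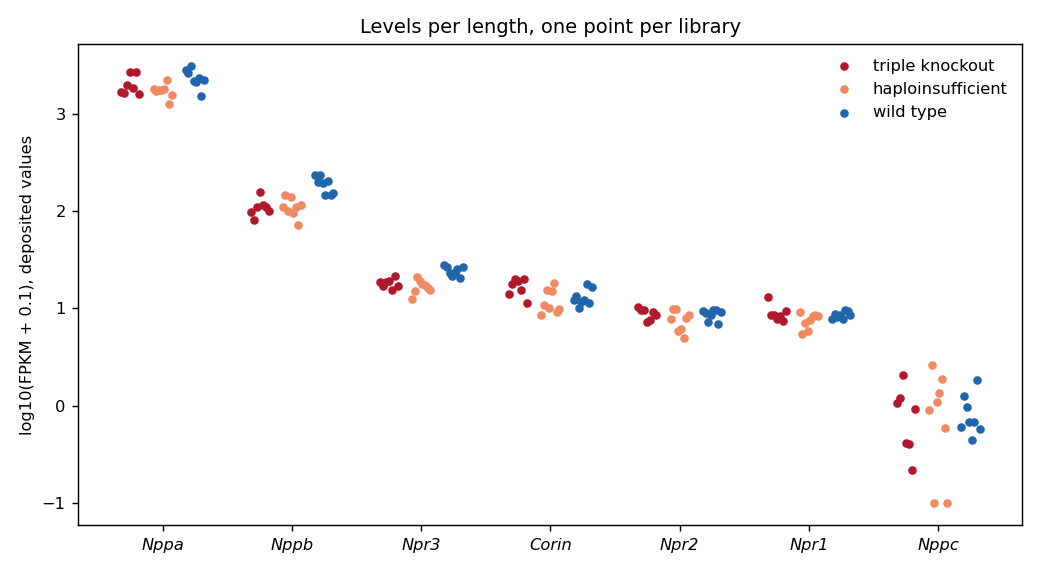
Levels per length of the 7 genes as log10 of the deposited FPKM plus 0.1, with 1 point per library and triple-knockout, haploinsufficient and wild-type libraries side by side. Nppa lies above all other genes in every library, Nppb second, and the 2 Nppc points at the bottom are the haploinsufficient libraries with no Nppc read.

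Nppb, the B-type peptide, had the widest gap between GRK groups and wild type. Its CPM had a lowest, median and highest value of 47.7, 64.6 and 103.5 in the triple knockout, 45.8, 69.3 and 93.5 in the haploinsufficient group, and 94.1, 120.4 and 152.2 in wild type. Every haploinsufficient library lay below every wild-type library, and 6 of 7 triple-knockout libraries did so too. The exception was triple-knockout replicate 4, at 103.5 CPM. Group means were 68.0 ± 18.1 CPM in the triple knockout, 71.3 ± 16.1 CPM in the haploinsufficient group and 119.0 ± 21.9 CPM in wild type (SD). The fitted log2 difference from wild type was -0.79 ± 0.15 in the triple knockout (SE, 1.73-fold lower) and -0.75 ± 0.15 in the haploinsufficient group (1.69-fold lower). Both comparisons share the wild-type libraries, and because they chose the genes they are given without a test.

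Nppa, the atrial peptide, was lower in the GRK groups by less and with overlap. The lowest, median and highest CPM were 1033, 1245 and 1922 in the triple knockout, 877, 1229 and 1503 in the haploinsufficient group, and 1067, 1581 and 2177 in wild type. In the triple knockout 3 libraries lay below all of wild type, while replicates 4 and 6, at 1922 and 1869 CPM, stood above the wild-type median. The log2 difference from wild type was -0.25 ± 0.16 in the triple knockout and -0.41 ± 0.15 in the haploinsufficient group. Triple-knockout replicates 1, 3 and 7, which had high markers of lung, foregut, liver and thymus, had 1033, 1245 and 1044 CPM, among the 4 lowest of the group. Without the 7 libraries high in those markers the difference was -0.09 ± 0.18 in the triple knockout and -0.34 ± 0.17 in the haploinsufficient group. For Nppb it was then -0.63 ± 0.18 and -0.68 ± 0.17. Whether the markers take part in the lower Nppa was not tested.

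Nppc, the C-type peptide, was near the limit of detection. Its counts summed to 46 over the triple-knockout libraries, 29 over the haploinsufficient libraries and 39 over the wild-type libraries, and it did not pass the filter on low counts. The CPM ran from 0.109 to 1.65 in the triple knockout (median 0.709), from 0 to 2.34 in haploinsufficient hearts (median 0.858) and from 0.323 to 1.64 in wild type (median 0.5256). The groups overlapped. Haploinsufficient replicates 3 and 8 had no Nppc read, and a count of 0 there allows up to 0.668 and 0.576 CPM by counting error alone. Nppc was therefore not compared between groups by a test.

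Corin, the protease that activates the atrial peptide, was highest in the triple knockout. The lowest, median and highest CPM were 54.3, 82.8 and 102.5 in the triple knockout, 42.4, 55.1 and 89.5 in the haploinsufficient group, and 50.6, 60.2 and 90.1 in wild type. In the triple knockout 3 of 7 libraries lay above all wild-type libraries, and the ranges otherwise overlapped. The log2 difference from wild type was 0.31 ± 0.15 in the triple knockout and -0.09 ± 0.15 in the haploinsufficient group. Without the 7 libraries high in lung, foregut, liver and thymus markers these values were 0.39 ± 0.13 and 0.14 ± 0.13. Within the ID sets the triple-knockout value was 0.48 ± 0.18 in IDs 1 to 12 and 0.17 ± 0.22 in IDs 19 to 30.

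The guanylyl cyclase receptors overlapped between all groups. Npr1, the receptor of the A- and B-type peptides, had a lowest, median and highest CPM of 31.8, 34.1 and 48.7 in the triple knockout, 23.4, 33.6 and 38.4 in the haploinsufficient group, and 30.9, 35.3 and 40.9 in wild type. The groups overlapped, and the highest value, in triple-knockout replicate 1, stood apart from the other 6 of its group. Npr2, the receptor of the C-type peptide, had 28.5, 33.4 and 34.8 CPM in the triple knockout, 18.2, 29.5 and 38.0 CPM in the haploinsufficient group, and 26.2, 33.2 and 36.8 CPM in wild type. The haploinsufficient group had both the lowest and the highest Npr2 library. For Npr1 the log2 difference from wild type was 0.02 ± 0.10 in the triple knockout and -0.15 ± 0.10 in the haploinsufficient group, and for Npr2 it was -0.02 ± 0.12 and -0.18 ± 0.12. With the 7 libraries high in markers of other organs left out, Npr1 was at -0.11 ± 0.11 in the triple knockout and -0.26 ± 0.11 in the haploinsufficient group, and Npr2 at -0.03 ± 0.16 and -0.29 ± 0.16.

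Npr3, the clearance receptor, was lower than wild type in both GRK groups. The lowest, median and highest CPM were 116.0, 123.1 and 158.9 in the triple knockout, 92.5, 123.1 and 153.5 in the haploinsufficient group, and 153.8, 181.1 and 197.2 in wild type. All 8 haploinsufficient and 6 of 7 triple-knockout libraries lay below every wild-type library, the exception being triple-knockout replicate 6. The log2 difference from wild type was -0.46 ± 0.10 in the triple knockout (1.38-fold lower) and -0.51 ± 0.10 in the haploinsufficient group (1.42-fold lower). Without the 7 libraries high in markers of other organs it was -0.43 ± 0.12 and -0.42 ± 0.11. Summed over 8 endocardial markers, none of them at 0, the CPM ran from 762 to 874 in the triple knockout, 653 to 855 in the haploinsufficient group and 809 to 961 in wild type. Of the 8, 1 was called lower in each GRK group, where 0.703% of all genes were called lower in the triple knockout and 1.38% in the haploinsufficient group. In the triple knockout 7 of the 8 lay below wild type (median log2 difference -0.27), and in the haploinsufficient group 6 did (median -0.20). The medians over all genes were 0.0085 and 0.011. Foxc1, a transcription factor of the endocardium, fell in the triple knockout by 0.59 ± 0.14 (adjusted p = 0.0278 in edgeR), a call lost in 8 of 23 fits that left out a library. Gpr126, an adhesion receptor, fell in the haploinsufficient group by 0.54 ± 0.12 (adjusted p = 0.00994 in edgeR, and -0.41 ± 0.12 with an adjusted p of 0.114 without the 7 libraries). Summed over 9 endothelial markers, none at 0, the CPM ran from 1138 to 1349 in the triple knockout, 1019 to 1235 in the haploinsufficient group and 1099 to 1424 in wild type. Of the 9, 4 lay below wild type in the triple knockout (median log2 difference 0.01) and 7 in the haploinsufficient group (median -0.09). None of the 9 was called in the triple knockout, and 2 were called lower in the haploinsufficient group. These were the junction cadherin Cdh5, which fell by 0.60 ± 0.11 (adjusted p = 0.00368 in edgeR), and the angiopoietin receptor Tek, which fell by 0.45 ± 0.09 (adjusted p = 0.00484 in edgeR). Without the 7 libraries Cdh5 was still called at -0.63 ± 0.14 (adjusted p = 0.0345 in edgeR), and Tek was not, at -0.36 ± 0.11 (adjusted p = 0.122 in edgeR). The part of both lists in the lower Npr3 was not tested.

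**Figure D2:**
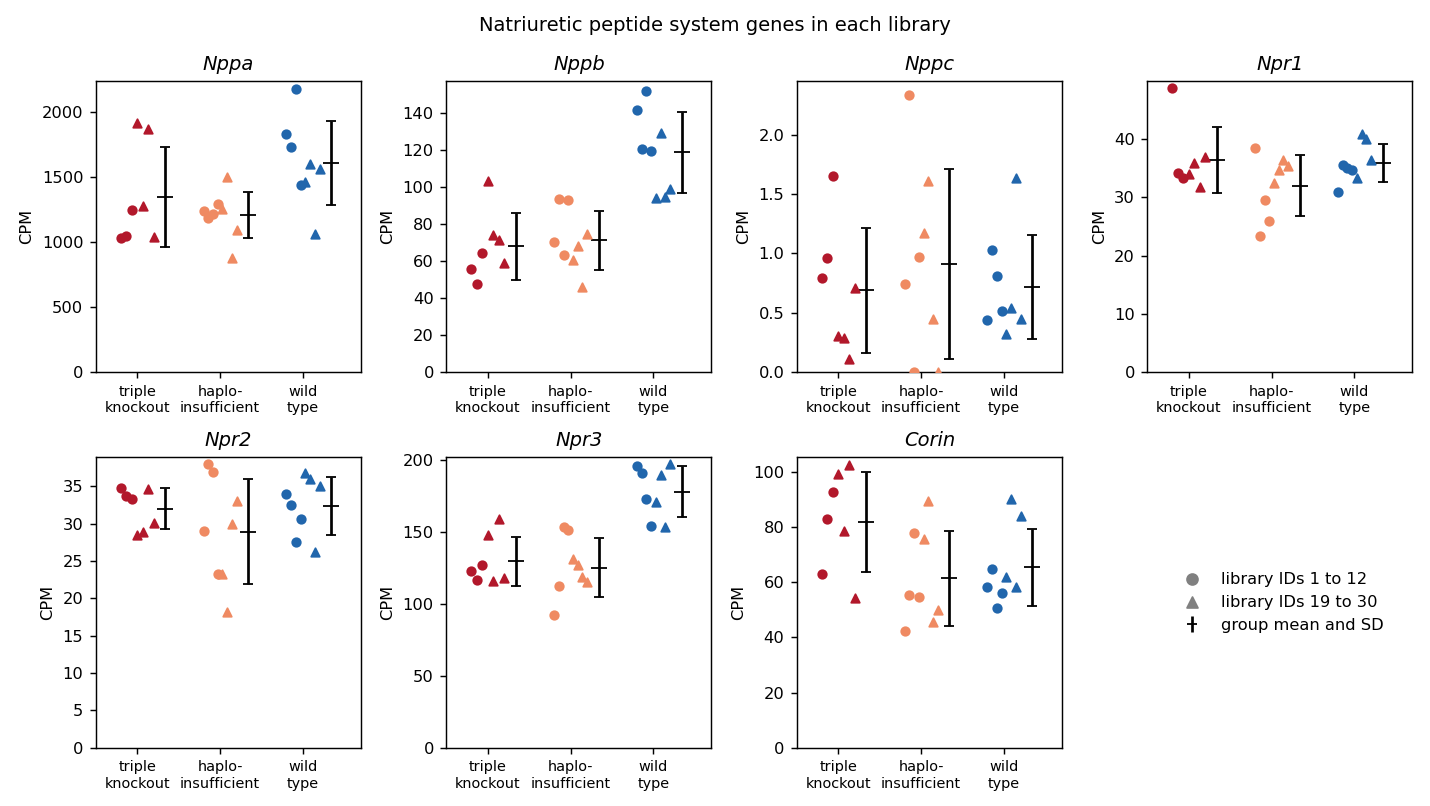
CPM of the 7 genes in each library, with triple-knockout, haploinsufficient and wild-type libraries side by side, circles for library IDs 1 to 12, triangles for IDs 19 to 30, and the group mean with its SD beside the points. For Nppb and Npr3 all haploinsufficient points and 6 of 7 triple-knockout points lie below the wild-type points, while the Npr1, Npr2, Nppc and Corin points overlap.

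Nppb and Npr3 were the 2 of 6 fitted members whose haploinsufficient and wild-type ranges did not overlap, where 0.28% of all 13941 genes tested were lower and 0.172% higher without overlap. No member was free of overlap between triple knockout and wild type, where 0.538% of genes were lower and 0.395% higher without overlap. For Npr3 the gap was narrow, from 153.5 CPM in the highest haploinsufficient library to 153.8 CPM in the lowest wild-type library, and in the deposited FPKM these libraries overlapped, at 20.8 and 20.4. These counts describe genes chosen for that difference.

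Ratios between members were taken within each library. The FPKM ratio of Nppa to Nppb had a median of 17.1 in the triple knockout (range 15.9 to 24.2), 17.0 in the haploinsufficient group (11.7 to 20.3) and 12.6 in wild type (10.4 to 14.5). Against wild type this ratio restates the lower Nppb for which the genes were chosen. The ratio of Npr3 to Npr1, the clearing to the signalling receptor, had a median of 1.97 in the triple knockout, 2.22 in the haploinsufficient group and 2.88 in wild type. The ratio of Npr2 to Npr1 was near 1 in all groups, with medians of 0.939, 0.964 and 1.00 in the same order. The ratio of Corin to Nppa had medians of 0.00831, 0.00674 and 0.00556. Between triple knockout and haploinsufficient hearts none of these 4 ratios passed the threshold in a two-sided exact permutation test of libraries, with Benjamini-Hochberg adjusted p-values of 0.304, 0.665, 0.959 and 0.225 in the order given.

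The triple knockout was then compared with the haploinsufficient group, which differs by label in the second floxed Grk2 allele. This comparison holds no wild-type library and was tested. None of the 6 fitted members was called at an adjusted p under 0.05 (edgeR quasi-likelihood test, Benjamini-Hochberg over all genes). Over all genes 0.395% were called (0.0789% higher and 0.316% lower). At an unadjusted p under 0.05 in edgeR were 1 of the 6, Corin, and 2137 of all 13941 genes. All 6 overlapped between these groups, where 0.0646% of all genes were lower and 0.0287% higher without overlap. DESeq2 and limma on FPKM called none either. Nppb differed by -0.04 ± 0.15 on the log2 scale (adjusted p = 0.938 in edgeR) and Npr3 by 0.05 ± 0.10 (adjusted p = 0.872 in edgeR). The intervals of 2 SE ran from -0.34 to 0.27 for Nppb and from -0.16 to 0.25 for Npr3, so differences within them remain possible. These intervals are not limits of detection. In simulated data 60% of 1.5-fold changes were recovered in this comparison. Nppa differed by 0.16 ± 0.15 (adjusted p = 0.652 in edgeR), Npr1 by 0.17 ± 0.11 (adjusted p = 0.448 in edgeR) and Npr2 by 0.16 ± 0.12 (adjusted p = 0.549 in edgeR). Nppa was at 0.0556 without triple-knockout replicate 4, and Npr1 at 0.0698 without triple-knockout replicate 1. When the 7 libraries high in markers of other organs were left out, Nppa differed by 0.25 ± 0.20 and Npr2 by 0.26 ± 0.18 (adjusted p = 0.853 and 0.845 in edgeR), while Nppb was at 0.05 ± 0.20 and Npr3 at -0.0055 ± 0.13 (adjusted p = 0.978 and 0.999 in edgeR). Corin was 0.41 ± 0.16 higher in the triple knockout, with an interval from 0.09 to 0.72 (adjusted p = 0.220 in edgeR). In 3 of 7 triple-knockout libraries Corin was above all haploinsufficient libraries. Without the 7 libraries high in markers of other organs the Corin difference was 0.25 ± 0.15 (adjusted p = 0.822 in edgeR).

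**Figure D3:**
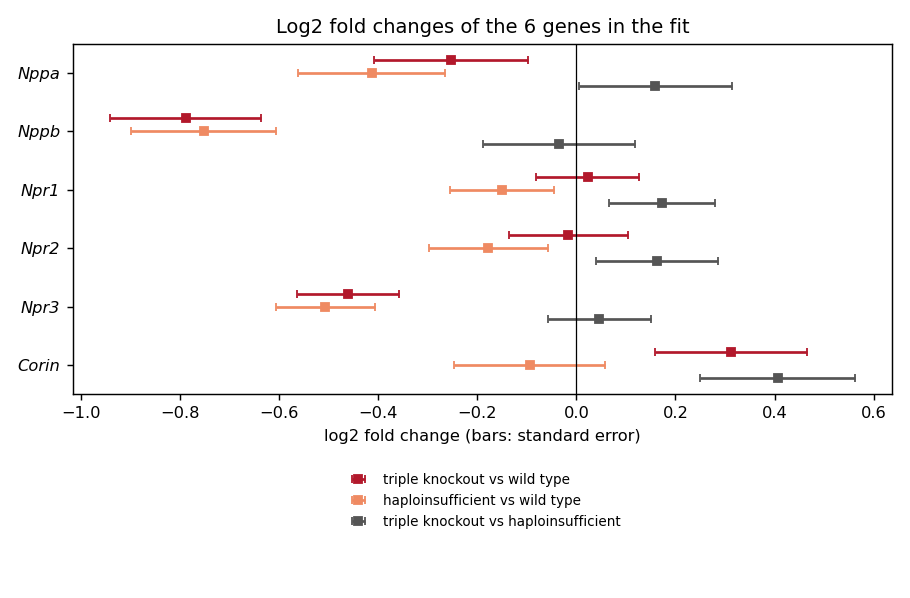
Log2 fold changes of the 6 fitted genes with SE bars, for triple knockout against wild type, haploinsufficient against wild type and triple knockout against haploinsufficient. Nppb and Npr3 lie left of 0 in both comparisons with wild type and near 0 between the GRK groups, and Corin lies at 0.41 between the GRK groups.

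The tandem peptides were also read within each ID set. In IDs 1 to 12, Nppb ran from 47.7 to 64.6 CPM in the triple knockout, 63.4 to 93.5 CPM in the haploinsufficient group and 119.8 to 152.2 CPM in wild type. In IDs 19 to 30 it ran from 59.0 to 103.5 CPM, 45.8 to 74.9 CPM and 94.1 to 129.5 CPM in the same order. The log2 difference of the triple knockout from wild type was -1.25 ± 0.17 in IDs 1 to 12 and -0.45 ± 0.17 in IDs 19 to 30. For the haploinsufficient group it was -0.74 ± 0.16 and -0.76 ± 0.17.

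For Nppa the log2 difference of the triple knockout from wild type was -0.69 ± 0.18 in IDs 1 to 12 and 0.09 ± 0.20 in IDs 19 to 30. Npr3 was lower in both sets, by log2 values of -0.54 ± 0.17 and -0.40 ± 0.12. Between triple knockout and haploinsufficient hearts, Nppb differed by -0.51 ± 0.17 in IDs 1 to 12 (adjusted p = 0.156 in edgeR) and by 0.30 ± 0.18 in IDs 19 to 30 (adjusted p = 0.541 in edgeR). The test of the difference between the sets, chosen after these values were seen, gave -0.82 ± 0.26 for Nppb (adjusted p = 0.232 in the edgeR interaction), where 0.0861% of genes were called. For Nppa it gave -0.53 ± 0.28 (adjusted p = 0.486 in the edgeR interaction). What the ID sets stand for is not given in the labels.

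Some pairs of members also varied together within groups. After subtracting the mean of each group in each ID set, 15 pairs of the 6 fitted genes were correlated over the 23 libraries by log2 CPM, with 100000 permutations of libraries inside those cells. Nppa and Nppb, the tandem peptides, had a Pearson r of 0.63 (permutation p = 0.00549, adjusted p = 0.0206) and a Spearman rho of 0.56 (permutation p = 0.0123, adjusted p = 0.0462). Without the 2 libraries farthest from the median of Nppa, r was 0.48. Corin followed Nppa with r = 0.70 (permutation p = 0.00162, adjusted p = 0.0121) and rho = 0.70 (permutation p = 0.00339, adjusted p = 0.0169), and r without 2 libraries was 0.56. Corin and Npr3 had r = 0.68 (permutation p = 0.00057, adjusted p = 0.00855) and rho = 0.67 (permutation p = 0.00162, adjusted p = 0.0169), and r without 2 libraries was 0.60. Nppa and Npr3 had r = 0.55 (permutation p = 0.00400, adjusted p = 0.0200) and rho = 0.62 (permutation p = 0.00318, adjusted p = 0.0169), and r without 2 libraries was 0.53.

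The other 11 pairs did not pass after adjustment, among them Nppb with Npr3, at r = 0.24 (permutation p = 0.356, adjusted p = 0.535). The guanylyl cyclase Npr1 had an r of -0.40 with Npr3 and -0.12 with Npr2, and the second was 0.066 without 2 libraries. Points of such a correlation share a library with its depth and tissue content. The correlations were not repeated without the 7 libraries high in markers of other organs. How many pairs of other genes would pass the same test was not determined, so the pairs that passed cannot be called particular to these members.

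**Figure D4:**
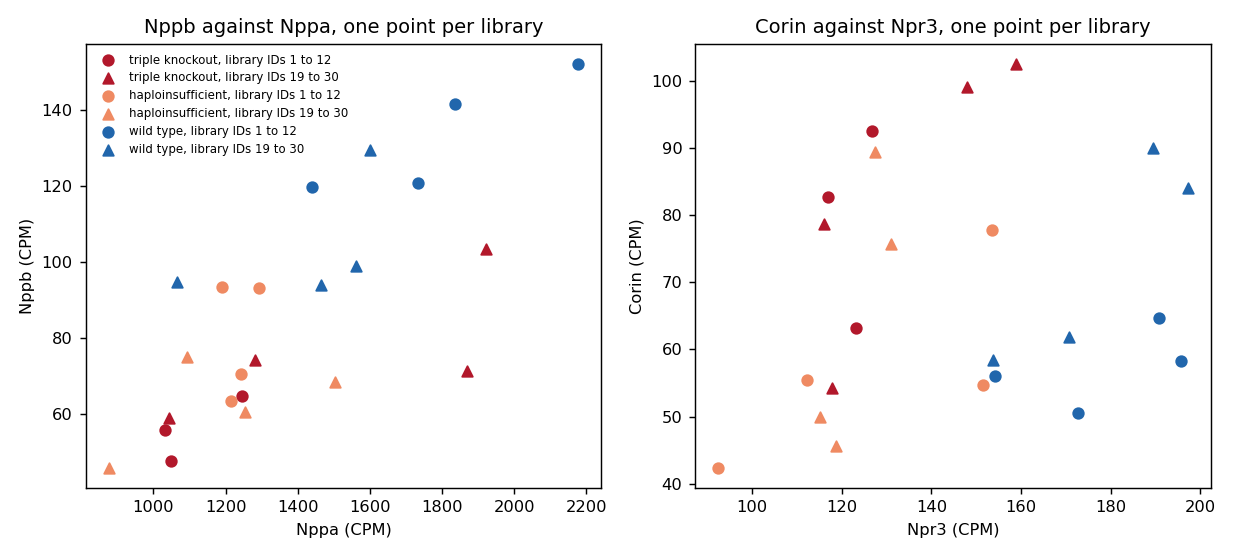
Nppb against Nppa and Corin against Npr3 in CPM, with 1 point per library, triple-knockout, haploinsufficient and wild-type libraries in separate colours, circles for library IDs 1 to 12 and triangles for IDs 19 to 30. Within a colour, libraries high in 1 gene tend to be high in the other, and in the panel of Npr3 the wild-type points lie to the right of nearly all others.

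Among 9848 genes with a mean of at least 10 CPM, the 5 whose residual log2 CPM was most like Nppa over the 23 libraries were Spon2 (r = 0.83), Myl7 (0.82), Dkk3 (0.80), Akr1b10 (0.80) and Myl4 (0.79). Myl7 and Myl4 encode myosin light chains of the atria. The 5 most like Nppb were Gnb5 (r = 0.78), Arih2 (0.77), Dnlz (0.76), Spon2 (0.73) and Ech1 (0.73), and Spon2 was in both lists. The 5 most like Npr3 were Mybphl, Igfbpl1, Zfp687, Rfxank and Lcp1, with r between 0.83 and 0.84. Nppb reached only 0.63 with Nppa, below all 5 genes listed for either peptide. These values are descriptions of the same libraries and carry no p.

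Markers of the myocardial regions were read beside the peptides. The 11 atrial markers, none at 0, summed to 3675 to 7392 CPM in the triple knockout, 4342 to 7135 CPM in the haploinsufficient group and 3546 to 6583 CPM in wild type, with none called in either comparison with wild type. The 10 trabecular markers, none at 0, summed to 752 to 1069 CPM in the triple knockout, 686 to 1108 CPM in the haploinsufficient group and 926 to 1122 CPM in wild type. Of these 10, 1 was called lower in the triple knockout and 2 in the haploinsufficient group, where 0.703% and 1.38% of all genes were called lower. The trabecular gene Slit2, a guidance ligand, fell in the triple knockout by 0.64 ± 0.14 (adjusted p = 0.0154 in edgeR) and in the haploinsufficient group by 0.72 ± 0.14 (adjusted p = 0.00385 in edgeR). Bmp10, a growth factor of trabeculae, fell in the haploinsufficient group by 0.71 ± 0.17 (adjusted p = 0.0253 in edgeR). Its call was lost in 6 of 23 fits that left out a library. The 10 ventricular markers, none at 0, summed to 13309 to 31614 CPM in the triple knockout, 15032.5 to 30614 CPM in the haploinsufficient group and 16186 to 26219 CPM in wild type. Of these 10, 2 were called lower in each GRK group, beside the same 0.703% and 1.38% of all genes. In the triple knockout 9 of the 10 lay below wild type (median log2 difference -0.13), and in the haploinsufficient group 5 did (median 0.0067). Kcne1 and Fhl2 fell in the triple knockout by 0.81 ± 0.16 and 0.64 ± 0.12 (adjusted p = 0.00553 and 0.00369 in edgeR). In the haploinsufficient group they fell by 0.62 ± 0.16 and 0.57 ± 0.12 (adjusted p = 0.0373 and 0.00802 in edgeR). The Kcne1 call in the haploinsufficient group was lost in 10 of 23 fits that left out a library. Of these calls only that of Fhl2 in the haploinsufficient group held without the 7 libraries high in markers of other organs (adjusted p = 0.0375 in edgeR). Slit2 was then at -0.66 ± 0.16 in the triple knockout (adjusted p = 0.0566 in edgeR) and -0.54 ± 0.15 in the haploinsufficient group (adjusted p = 0.0865 in edgeR). Fhl2 was at -0.48 ± 0.12 and Kcne1 at -0.54 ± 0.13 in the triple knockout (adjusted p = 0.101 and 0.0617 in edgeR), and Kcne1 at -0.48 ± 0.13 and Bmp10 at -0.60 ± 0.17 in the haploinsufficient group (adjusted p = 0.0865 and 0.108 in edgeR). Whether these regions take part in the lower Nppb was not tested.

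Lists of other cell types held 4 further calls. In the triple knockout 1 of 7 smooth muscle markers was called lower and 1 of 7 neural crest, neuron and Schwann cell markers higher. Over all genes 0.703% were called lower there and 0.488% higher. In the haploinsufficient group 2 of 14 markers of lung, foregut, liver and thymus were called higher, where 0.861% of all genes were. Of these 14, 13 lay above wild type in the haploinsufficient group (median log2 difference 1.45) and 12 in the triple knockout (0.71). Of the 7 neural crest, neuron and Schwann cell markers, 7 lay above wild type in the triple knockout (median 1.22) and 6 in the haploinsufficient group (0.29). In the triple knockout the smooth muscle gene Tagln fell by 0.49 ± 0.11 (adjusted p = 0.0173 in edgeR), a call lost without triple-knockout replicate 1. The 7 smooth muscle markers went both ways there, 4 up and 3 down, with a median log2 difference of 0.02 and a highest of 2.15. The neuronal growth gene Gap43 rose in the triple knockout by 0.55 ± 0.11 (adjusted p = 0.00383 in edgeR). In the haploinsufficient group the foregut and lung mesenchyme factor Foxf1 rose by 4.12 ± 1.05 (adjusted p = 0.0340 in edgeR) and the epithelial claudin Cldn6 by 4.22 ± 1.13 (adjusted p = 0.0424 in edgeR). The calls of Foxf1 and Cldn6 were lost in 10 and 12 of 23 fits that left out a library. With the 7 libraries left out, Tagln was at -0.40 ± 0.13 and Gap43 at 0.53 ± 0.13 (adjusted p = 0.352 and 0.0692 in edgeR), and neither Foxf1 nor Cldn6 had a value.

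The rest of the cyclic GMP pathway was read as a list. The list holds enzymes that process or degrade the peptides, soluble guanylyl cyclase, cyclic GMP kinases and phosphodiesterases, kinase targets and exporters, and 26 of its 32 symbols were tested. In the triple knockout 1 of 26 was called lower than wild type and none higher, where 1.19% of all genes were called (0.488% higher and 0.703% lower). In the haploinsufficient group 2 of 26 were called lower and none higher, where 2.24% of all genes were called (0.861% higher and 1.38% lower). At an unadjusted p under 0.05 in edgeR were 8 of 26 in the triple knockout and 9 of 26 in the haploinsufficient group. Of all 13941 genes, 1503 and 2395 were under it. Between the GRK groups 0 of 26 were called in edgeR, with 5 at an unadjusted p under 0.05, as were 2137 of all 13941 genes, and 0 in DESeq2 as well. The median log2 difference of the list was -0.04 in the triple knockout and -0.10 in the haploinsufficient group against wild type, and 0.14 between the GRK groups, against 0.0085, 0.011 and 0.0029 for all genes.

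The gene called in both was Ide, the insulin-degrading enzyme, which also cleaves natriuretic peptides. Ide ran from 60.9 to 85.5 CPM in the triple knockout (median 75.2), from 43.8 to 81.9 CPM in haploinsufficient hearts (median 64.7) and from 93.8 to 131.9 CPM in wild type (median 112.7). No library of either GRK group reached the lowest wild-type library. It fell by 0.62 ± 0.12 in the triple knockout (adjusted p = 0.00350 in edgeR) and by 0.82 ± 0.12 in the haploinsufficient group (adjusted p = 9.03e-05 in edgeR). Within the ID sets the triple-knockout value for Ide was -0.49 ± 0.17 in IDs 1 to 12 (adjusted p = 0.245) and -0.74 ± 0.16 in IDs 19 to 30 (adjusted p = 0.0585), both in edgeR. Pde1c, a calmodulin-dependent phosphodiesterase of both cyclic nucleotides, averaged 11.3 ± 2.39 CPM in the triple knockout, 9.08 ± 2.36 CPM in the haploinsufficient group and 13.9 ± 2.30 CPM in wild type. It fell in the haploinsufficient group by 0.66 ± 0.17 (adjusted p = 0.0315 in edgeR). That call was lost without any single one of wild-type replicates 2, 7 and 8 and haploinsufficient replicates 1, 7 and 8, with an adjusted p of up to 0.0858. Pde5a, the main phosphodiesterase specific for cyclic GMP, was not called but spread widely, from 17.9 to 94.3 CPM in the triple knockout, 17.9 to 73.6 CPM in the haploinsufficient group and 18.7 to 29.3 CPM in wild type, and was chosen for mention after its values were seen. Ide was still called without the 7 libraries high in markers of other organs, with adjusted p-values of 0.0220 in the triple knockout and 0.00250 in the haploinsufficient group in edgeR, and Pde1c was not, at -0.49 ± 0.19 (adjusted p = 0.263).

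Of 21 transcription factors known to act on the Nppa or Nppb promoter, 1 was called lower in the triple knockout and 2 in the haploinsufficient group, and none higher, where 0.703% and 1.38% of all genes were called lower. The 1 call in the triple knockout was Nkx2-5, which is not among the genes behind these shares. Nkx2-5, the cardiac homeobox factor for which the Cre driver is named, had 26.5 to 61.8 CPM in the triple knockout (median 56.2), 47.6 to 94.1 CPM in haploinsufficient hearts (median 70.5) and 82.9 to 114.2 CPM in wild type (median 99.2). It fell in the triple knockout by 0.98 ± 0.15 (adjusted p = 0.000283 in edgeR) and differed by -0.50 ± 0.14 in the haploinsufficient group (adjusted p = 0.0665 in edgeR). Whether the driver takes up an allele of Nkx2-5 is not stated in the labels, so against wild type the driver and the kinase alleles cannot be told apart as sources of its level. Between the GRK groups, which both carry the driver, Nkx2-5 differed by -0.48 ± 0.15 (adjusted p = 0.141 in edgeR). Myocd, a coactivator of serum response factor, fell in the haploinsufficient group by 0.47 ± 0.13 (adjusted p = 0.0402 in edgeR), and Zfpm2, a cofactor of GATA4, by 0.54 ± 0.14 (adjusted p = 0.0363 in edgeR). Each of these 2 calls was lost in 10 of 23 fits that left out a library, with an adjusted p of up to 0.103 for Myocd and 0.0944 for Zfpm2. Nkx2-5 was still called in the triple knockout without the 7 libraries high in markers of other organs (adjusted p = 0.000903 in edgeR), while Myocd was at -0.34 ± 0.13 and Zfpm2 at -0.48 ± 0.18 (adjusted p = 0.263 and 0.248 in edgeR). Gata4 itself averaged 203.5 ± 44.0 CPM in the triple knockout, 189.9 ± 51.1 CPM in the haploinsufficient group and 211.5 ± 33.9 CPM in wild type and was not called.

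The genes beside the tandem peptides were not called. The list holds 13 genes of chromosome 4, of which Tnfrsf8, with its start at -2686 kb from that of Nppa, is no close neighbour. Of the 13, 11 were tested and 0 passed in any of the 3 comparisons in edgeR, and 0 had an unadjusted p under 0.05. Over all genes 1.19% were called in the triple knockout and 2.24% in the haploinsufficient group against wild type, and 0.395% between the GRK groups. Of all 13941 genes, 1503, 2395 and 2137 had an unadjusted p under 0.05 in the same order. At such shares 0 calls among 11 genes is near what all genes show. The nearest on the Nppa side, the chloride transporter gene Clcn6, differed by 0.20 ± 0.11 in the triple knockout (adjusted p = 0.538 in edgeR) and 0.13 ± 0.11 in the haploinsufficient group (adjusted p = 0.576 in edgeR). The nearest listed gene on the Nppb side, 2510039O18Rik, differed by -0.09 ± 0.09 and 0.01 ± 0.09 (adjusted p = 0.806 and 0.926 in edgeR). Fbxo2, the least precise, differed by 0.59 ± 0.52 and 0.56 ± 0.53. The log2 differences of the other 10 from wild type ran from -0.16 to 0.20 in the triple knockout and from -0.20 to 0.13 in the haploinsufficient group.

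**Figure D5:**
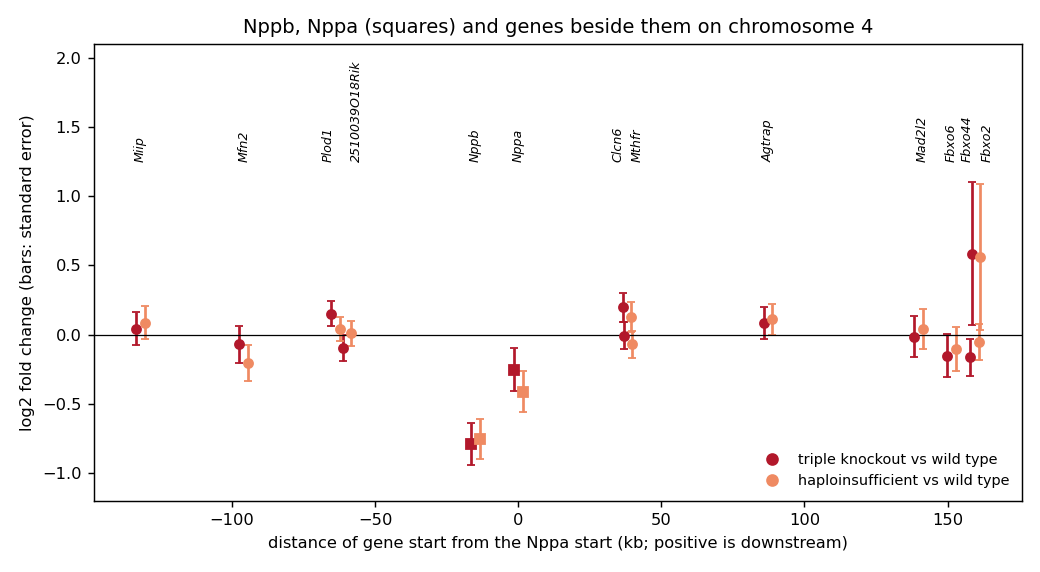
Log2 fold changes with SE bars of Nppb and Nppa (squares) and of close neighbouring genes that were tested (circles). They are placed by the distance of the gene start from the Nppa start in kb. Triple knockout and haploinsufficient are each set against wild type and drawn slightly apart. Nppb lies at -0.79 and -0.75, and no neighbour was called, where 1.19% and 2.24% of all genes were.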

How the data were processed

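Per the labels' protocols, frozen hearts gave ribosome-depleted RNA and single-end libraries without strand. The deposited counts of the authors are whole reads per gene. The submitters' processing notes name TopHat2 (version 2.0.10), Bowtie2, HTSeq, Cufflinks (version 2.1) and mm10, and FPKM were used as the authors deposited them. Counts were fitted with edgeR (version 4.0.16, R version 4.3.3) over all 23 libraries with group and library ID set, TMM scaling and a filter (minimum count 10, minimum total 15). This left 13941 genes apart from the targeted kinase genes, Nkx2-5 and Cre. The SE is the log2 fold change divided by the root of F. CPM use TMM-scaled sizes, and log2 CPM a prior count of 1. Genes with an adjusted p under 0.05 were called. Alternatives used DESeq2 (version 1.42.0), limma (version 3.58.1), other scaling, filters, terms and library subsets. Members and lists were chosen with earlier results of these data known. Named are all members, up to 4 called genes per list and comparison by smallest p, and the 5 genes most like Nppa, Nppb and Npr3. The fit was tested on simulated data. Libraries of a group all differed beyond sampling noise (lowest chi-square per degree of freedom 5.00).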

Additional observations from a re-analysis of the deposited data

Results flagged for a closer look

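Npr1 in triple-knockout replicate 1, at 48.7 CPM, lay far from the other 6 triple-knockout libraries, the next highest of which had 36.9 CPM. The gap was 0.701 of the range of the group. Chance flags about 1 in 20 groups, and 21 groups of the 7 genes were looked at. This library was also high in markers of lung, foregut, liver and thymus, whose part in its Npr1 level was not tested. Without it the log2 difference of Npr1 from wild type in the triple knockout was -0.08.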

How the results depend on the processing

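Between triple knockout and haploinsufficient hearts no member was called under any setting run, and signs near 0 changed. Nppa turned to -0.15, and Npr3 to -0.0598, in IDs 1 to 12 alone. Nppb turned to 0.30, and Npr1 to -0.00884, in IDs 19 to 30 alone. Without the 7 libraries high in markers of other organs Nppb turned to 0.0528 and Npr3 to -0.00554, and limma on log2(FPKM + 0.1) and log2(FPKM + 1) gave 0.00505 and 0.00498 for Nppb. Leaving out each library in turn gave -0.17 to 0.0621 for Nppb and -0.00703 to 0.0968 for Npr3. Against wild type the triple-knockout values moved most within ID sets 1 to 12 and 19 to 30: -0.69 and 0.0949 for Nppa, -1.25 and -0.45 for Nppb, and 0.20 and -0.13 for Npr1, which was -0.11 without the libraries high in other markers. Npr2 in the haploinsufficient group was 0.0282 and -0.36. The cause was not tested. Pathway calls in the triple knockout numbered 3 in DESeq2, 3 with only the groups compared and 0 in each ID set. In the haploinsufficient group they numbered 0 in IDs 1 to 12, and 1 in IDs 19 to 30, without the libraries high in other markers and in both limma fits. Leaving out each library gave 1 to 2, 1 to 3 and 0 to 1 in triple knockout against wild type, haploinsufficient against wild type and between the GRK groups. Over all genes, calls ran from 50 to 297, 20 to 561 and 0 to 269 across settings, against 166, 312 and 55. Foxf1, Cldn6 and Nkx2-5 had no value under some settings.

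Replicate numbers did not pair the libraries: 22 same-numbered pairs had a median r of 0.000737, with 5 over 0.1, and 2 libraries correlated best with their own number. With the replicate number as a block in place of the ID set, 0 members and 0 pathway genes were called between the GRK groups, pathway calls stayed at 1 and 2, and all-gene calls were 147, 222 and 16. Library size limits Nppc in all groups.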
